A study of Mus musculus with 12 samples.

Results

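Ttr, Ptgds, Col1a1, Col1a2, Dcn, Igf2, Mgp, Cldn5, Pecam1 and Rgs5 are transcripts of the choroid plexus, the meninges and the blood vessels of the brain. Their levels were followed in RNA libraries made from sorted projection neurons of the mouse cerebral cortex. The 10 genes were found by symbol in a table of 56734 genes, and all 10 were present. They were listed with their levels in these libraries already known, so the levels and the differences between groups are given as a description, with no test. The libraries formed 4 groups of 3. These were layer 2 neurons at postnatal day 7 (P7), layer 3 neurons at P7, layer 2 neurons at postnatal day 3 (P3) and layer 3 neurons at P3. Every group was wild type (wt) and its cells are called CPN in the labels. The neurons had been marked with the red fluorescent protein mCherry by electroporation in utero and collected by fluorescence-activated sorting, and each library came from a pool of 2 to 3 pups. The labels do not name the promoter that drove mCherry. Levels are in TPM (transcripts per 1000000), a measure per transcript length. Since TPM sums to the same total in every column, neither the depth behind a value nor its counting error is known.

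The choroid plexus is a secretory epithelium in the ventricles that makes cerebrospinal fluid and exports transthyretin, the product of Ttr, a carrier of thyroid hormone and of retinol-binding protein. The meninges cover the cortex. Their fibroblasts lay down fibrillar collagen I (Col1a1, Col1a2) and the small proteoglycan decorin (Dcn), and they make the growth factor IGF2 and lipocalin-type prostaglandin D synthase (Ptgds). Cortical vessels are lined by endothelial cells joined by claudin-5 (Cldn5) and PECAM-1 (Pecam1) and are wrapped by pericytes, which express the G-protein regulator Rgs5. Matrix Gla protein (Mgp) is an inhibitor of calcification made by vessel wall cells and fibroblasts. In sorted bulk samples, fewer cells of a type and less RNA per cell cannot be told apart.

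Promoter windows of 250 bases before the gene start were at hand in RefSeq for 5 of the 10 members (8 windows, build GRCm38.p6, which is not the build the authors aligned to). The 4 printed here are of genes on both sides of the main contrast described below. Ptgds and Col1a2 were high in a single library, and Cldn5 and Rgs5 were not. Each is written 5′ to 3′ on the strand of its gene. Capitals mark the letters CCAAT, which read ATTGG when the match is on the other strand. They also mark the letters GGGCGG, read as CCGCCC when on the other strand. The letters TATAAA were searched on both strands as well. No match shares letters with another.
Ptgds, chr2:25469750-25469999, minus strand: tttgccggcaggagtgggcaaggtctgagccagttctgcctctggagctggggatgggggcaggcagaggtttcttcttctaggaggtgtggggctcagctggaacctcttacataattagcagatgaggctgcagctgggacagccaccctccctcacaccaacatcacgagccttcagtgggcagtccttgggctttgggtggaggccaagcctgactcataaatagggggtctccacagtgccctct
Col1a2, chr6:4505368-4505617, plus strand: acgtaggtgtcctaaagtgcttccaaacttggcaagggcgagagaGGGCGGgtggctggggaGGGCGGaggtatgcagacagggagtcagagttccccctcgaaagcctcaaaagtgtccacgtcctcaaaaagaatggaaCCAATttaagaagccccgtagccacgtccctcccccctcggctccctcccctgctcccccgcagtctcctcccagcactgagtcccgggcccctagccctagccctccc
Cldn5, chr16:18776597-18776846, plus strand: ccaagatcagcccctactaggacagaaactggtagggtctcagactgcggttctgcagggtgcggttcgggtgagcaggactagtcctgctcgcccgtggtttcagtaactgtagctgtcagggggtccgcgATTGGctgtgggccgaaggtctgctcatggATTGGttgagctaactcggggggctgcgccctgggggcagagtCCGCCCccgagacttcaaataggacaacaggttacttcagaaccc
Rgs5, chr1:169655251-169655500, plus strand: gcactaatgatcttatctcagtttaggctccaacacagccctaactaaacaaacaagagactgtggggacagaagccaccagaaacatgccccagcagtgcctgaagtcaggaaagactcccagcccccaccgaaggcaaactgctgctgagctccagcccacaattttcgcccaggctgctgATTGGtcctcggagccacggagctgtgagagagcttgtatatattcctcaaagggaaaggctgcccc
The Ptgds window held none of these letters. Col1a2 held CCAAT 1 time and GGGCGG 2 times, Cldn5 held CCAAT 2 times and GGGCGG 1 time, and Rgs5 held CCAAT 1 time. Among 32851 windows of all genes, 33.8% held CCAAT, 32.7% held GGGCGG and 12.4% held TATAAA. The matches describe letters in these windows only.

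The number of genes at 1 TPM or more was 15349 to 16948 per library. The filter of 1 TPM in 3 libraries passed 17606 genes, the 10 members among them. Pearson r of log2(TPM + 1) between libraries was 0.961 to 0.982 within groups and 0.878 to 0.974 between groups, and no pair of libraries was identical. A list of 10 projection neuron genes had mean log2(TPM + 1) scores of 6.67 to 6.94 in P7 layer 2, 7.05 to 7.11 in P7 layer 3, 6.20 to 6.73 in P3 layer 2 and 7.13 to 7.33 in P3 layer 3. P3 layer 3 replicate 1 had the fewest genes at 1 TPM and stood apart in the choroid plexus and meningeal transcripts. Results that rest on it are therefore given with and without it.

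Ttr stayed at or below 2.20 TPM everywhere except in P3 layer 3 replicate 1. It had 0, 2.20 and 0 TPM in P7 layer 2, 0.466, 0 and 0.642 TPM in P7 layer 3, 0, 0.233 and 1.87 TPM in P3 layer 2, and 234, 2.15 and 0 TPM in P3 layer 3. The single high value was 106-fold above the next library, P7 layer 2 replicate 2. Ttr was listed at 0 in 5 of the 12 libraries, including replicate 3 of the group that held the high value. All 4 groups overlapped in range.

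Ptgds, which turns prostaglandin H2 into prostaglandin D2, was the most abundant of the 10 in every library. It had 153, 20.4 and 13.3 TPM in P7 layer 2, 61.8, 28.2 and 109 TPM in P7 layer 3, 15.6, 259 and 23.9 TPM in P3 layer 2, and 6613, 446 and 189 TPM in P3 layer 3. P3 layer 3 replicate 1 was 14.8-fold above the next library, which belonged to the same group. The spread was wide in every group, with 1 library well above the other two in P7 layer 2 and in P3 layer 2.

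The collagen I chains and decorin were low at P7 and highest in P3 layer 3. Col1a1, the alpha 1 chain, had 1.29, 1.03 and 0.797 TPM in P7 layer 2, 1.92, 0.631 and 1.03 TPM in P7 layer 3, 2.28, 3.57 and 1.27 TPM in P3 layer 2, and 23.2, 5.77 and 3.6 TPM in P3 layer 3. Col1a2, the alpha 2 chain, had 2.16, 1.93 and 2.29 TPM in P7 layer 2, 3.12, 1.08 and 1.34 TPM in P7 layer 3, 2.78, 5.0 and 3.04 TPM in P3 layer 2, and 35.7, 7.79 and 3.87 TPM in P3 layer 3. For both chains the highest library was again P3 layer 3 replicate 1, at 4.02-fold (Col1a1) and 4.58-fold (Col1a2) over the next one, P3 layer 3 replicate 2. Dcn, whose product binds collagen fibrils, had 4.77, 4.15 and 4.04 TPM in P7 layer 2, 6.63, 6.74 and 7.96 TPM in P7 layer 3, 5.75, 17.7 and 9.54 TPM in P3 layer 2, and 90.2, 19.3 and 16.5 TPM in P3 layer 3. P3 layer 3 replicate 1 was 4.67-fold above the next library for Dcn. The P7 libraries of each layer lay within a narrow range.

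Igf2, a fetal growth factor that acts through the IGF1 receptor, had the same order of groups. It had 2.19, 1.15 and 1.68 TPM in P7 layer 2, 2.31, 1.38 and 1.54 TPM in P7 layer 3, 2.64, 8.11 and 5.32 TPM in P3 layer 2, and 80.3, 11.5 and 8.46 TPM in P3 layer 3. Every P3 library lay above every P7 library, and P3 layer 3 replicate 1 was 6.99-fold above the next. Igf2os, which lies antisense to Igf2, was listed at 0 in all 12 libraries. How reads shared by these genes were counted is not known, so the 0 values do not show that Igf2os was silent.

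Mgp stayed low throughout. It had 0.763, 0 and 1.03 TPM in P7 layer 2, 1.37, 0.873 and 0.703 TPM in P7 layer 3, 0, 1.00 and 0.356 TPM in P3 layer 2, and 2.28, 1.02 and 3.50 TPM in P3 layer 3. Its highest library was P3 layer 3 replicate 3, not replicate 1, and only 6 of 12 libraries reached 1 TPM.

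The 3 vessel genes had another pattern. Cldn5, the main claudin of the blood-brain barrier, had 2.44, 6.93 and 8.67 TPM in P7 layer 2, 7.55, 7.33 and 7.36 TPM in P7 layer 3, 1.26, 2.04 and 7.29 TPM in P3 layer 2, and 2.61, 6.42 and 3.82 TPM in P3 layer 3. P7 layer 3 libraries lay close together and above P3 layer 3, while both layer 2 groups were scattered. Pecam1, an adhesion receptor of endothelial cells, had 1.25, 1.24 and 1.76 TPM in P7 layer 2, 3.28, 1.09 and 2.57 TPM in P7 layer 3, 2.12, 1.27 and 0.276 TPM in P3 layer 2, and 0, 1.48 and 0.693 TPM in P3 layer 3. P3 layer 3 replicate 1, where Ttr and Ptgds peaked, was the only library with Pecam1 at 0. Rgs5, the pericyte gene, had 5.05, 5.65 and 4.43 TPM in P7 layer 2, 9.22, 7.02 and 6.83 TPM in P7 layer 3, 1.96, 1.88 and 2.19 TPM in P3 layer 2, and 0.504, 5.42 and 0.562 TPM in P3 layer 3. Its lowest value of all was in P3 layer 3 replicate 1, and P3 layer 3 replicate 2 stood far above the other two libraries of its group.

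**Figure D1:**
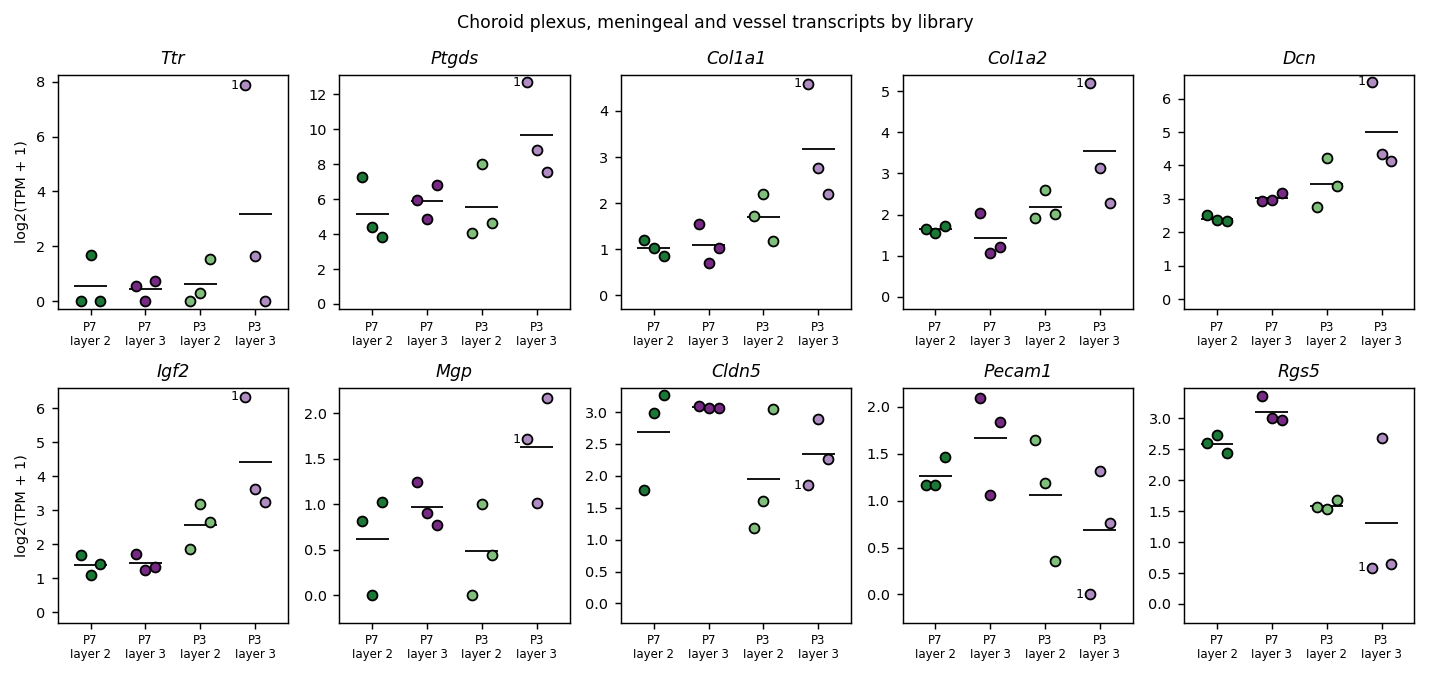
Level of each of the 10 transcripts as log2(TPM + 1) on the vertical axis, with a point per library and a bar at the group mean (3 libraries); the digit 1 marks P3 layer 3 replicate 1. That library is the highest point for Ttr, Ptgds, Col1a1, Col1a2, Dcn and Igf2 and the lowest for Pecam1 and Rgs5.

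Summed, the 10 transcripts took 7082 TPM in P3 layer 3 replicate 1, or 0.708% of that library, against 34.3 to 506 TPM in the other 11. Ptgds made up 93.4% of that sum. Without Ptgds the other 9 summed to 469 TPM in P3 layer 3 replicate 1 and to 18.8 to 60.9 TPM elsewhere.

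The lists of cell type genes showed which other transcripts shared this library. P3 layer 3 replicate 1 had the highest level of 6 of the 10 members, against 7.85% of all tested genes, and 3 of them (Ttr, Ptgds and Igf2) were at least 5-fold above the next library, against 0.125% of all tested genes. Of 22 meningeal fibroblast genes, 16 were tested, and 12 of these 16 were highest there, with 6 at least 5-fold above the next library. Lum, among the 12 but not the 6, reached 1 TPM in 3 libraries only, P3 layer 3 replicate 1 among them. It thus passed the filter through the library where it was high and lends the count no support. The median of the 16 stood 2.62 above the median of the other 11 libraries on the log2(TPM + 1) scale, where all tested genes had a median of -0.285. The mean log2(TPM + 1) score of the meningeal list was 3.69 in P3 layer 3 replicate 1 and 1.37 to 2.25 elsewhere, and 1 of its 22 genes was at 0 there. Its summed level was 366 to 447 TPM in P7 layer 2, 303 to 411 TPM in P7 layer 3, 65.9 to 115 TPM in P3 layer 2 and 87.8 to 532 TPM in P3 layer 3, and at P7 most of the sum was Ccn3. With 1 library on one side these are values without a test.

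Several of the meningeal genes were abundant in this library. Apod, which encodes the lipid carrier apolipoprotein D, had 123 TPM in P3 layer 3 replicate 1 and at most 20.9 TPM elsewhere. Slc6a13, the GABA and taurine transporter GAT2 of the leptomeninges, had 65.6 TPM there and at most 12.3 TPM elsewhere. Slc22a6, an organic anion transporter, had 26.4 TPM there and at most 4.44 TPM elsewhere. The retinoic acid genes of the meninges were high as well, with the binding protein Crabp2 at 60.3 TPM and the synthesizing enzyme Aldh1a2 at 30.3 TPM, against at most 8.14 and 5.74 TPM elsewhere. The collagen-binding proteoglycan Fmod had 44.2 TPM there and at most 4.70 TPM elsewhere. Crabp2, Aldh1a2 and Fmod were named after their values were seen. The meningeal list was not uniform, since Ccn3, a secreted CCN family protein, had 37.6 TPM there and up to 391 TPM in P7 layer 2.

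Choroid plexus genes other than Ttr ranged from 0 to 31.6 TPM in P3 layer 3 replicate 1. The most abundant, Enpp2, had 31.6 TPM there and up to 222 TPM in P7 layer 2. Of the 21 listed genes 7 had their highest level of the 12 libraries in P3 layer 3 replicate 1. Of the 21 genes only 8 passed the filter of 1 TPM in 3 libraries, 13 did not, and 6 were listed at 0 in P3 layer 3 replicate 1 (Prlr, Slc4a5, Car12, Lmx1a, Steap1 and F5). Some listed genes, named after their values were seen, were under 1 TPM there, and a part of these were even lower elsewhere. Others, such as Kcnj13, Folr1, Wdr86 and Kcne2, were above 1 TPM there. Otx2 had 0.588 TPM there and at most 0.252 TPM elsewhere, Aqp1 had 0.668 TPM and at most 0.304 TPM, Cldn2 had 0.559 TPM and at most 0.425 TPM, and Tmem72 had 0.120 TPM and 0 elsewhere. Kl, at 0.590 TPM, and Clic6, at 0.129 TPM, were each higher in another library. Of the untested genes 6 were highest there, these 4 with Wdr86 at 2.40 TPM and Kcne2 at 1.72 TPM, against at most 0.910 and 0.790 TPM elsewhere. Folr1, a folate receptor of the choroid plexus, had 6.29 TPM there, below the 11.2 TPM of P3 layer 2 replicate 2. Of the 8 tested genes 1 was highest in P3 layer 3 replicate 1, the potassium channel Kcnj13, at 15.2 TPM against at most 4.80 TPM elsewhere. That is a share of 12.5%, against 7.85% of all tested genes. The list score was 1.23 in P3 layer 3 replicate 1, inside the range of 0.770 to 1.34 of the other libraries. Its summed level was 197 to 245 TPM in P7 layer 2, 135 to 162 TPM in P7 layer 3, 50.7 to 97.9 TPM in P3 layer 2 and 34.5 to 73.5 TPM in P3 layer 3. Enpp2 made up 79.3 to 91.6% of this sum at P7, and without Enpp2 the list summed to 16.6 to 23.4 TPM in P7 layer 2, 16.6 to 29.0 TPM in P7 layer 3, 26.5 to 73.2 TPM in P3 layer 2 and 13.05 to 41.9 TPM in P3 layer 3.

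The vessel lists were counted in P3 layer 3 replicate 1 in the same way. Of 11 tested endothelial genes 2 were highest there, a share of 18.2%, against 7.85% of all tested genes. Of the 24 listed 13 were at 0 there. The score of the list was 1.42 in P3 layer 3 replicate 1 and 1.23 to 1.71 elsewhere. Itm2a, a membrane protein of endothelium and other cells, had 213 TPM there and at most 79.0 TPM elsewhere. Cdh5, the endothelial cadherin, had 1.61 TPM there and at most 0.638 TPM elsewhere, and Flt1 and Tek, both receptors of endothelial growth factors, were at 0 there and at most 0.618 and 0.384 TPM elsewhere. Of 10 tested mural cell genes 1 was highest there, a share of 10%, against 7.85% of all tested genes. It was Vtn, the secreted adhesion protein vitronectin, at 142 TPM against at most 20.5 TPM elsewhere. The mural score was 1.37 in P3 layer 3 replicate 1 and 0.876 to 1.46 elsewhere. Summed levels of the endothelial list were 252 to 309 TPM in P7 layer 2, 256 to 265 TPM in P7 layer 3, 189 to 221 TPM in P3 layer 2 and 240 to 422 TPM in P3 layer 3. Those of the mural list were 89.6 to 99.5 TPM, 89.9 to 139 TPM, 64.2 to 73.8 TPM and 97.1 to 203 TPM in the same order of groups. Both lists had their highest sum of the 12 libraries in P3 layer 3 replicate 1, at 422 and 203 TPM. Itm2a made up 213 TPM of the endothelial sum there and Vtn 142 TPM of the mural sum. The endothelial list was uneven in level. The receptor component Ramp2, its most abundant gene, had 101 to 151 TPM over the 12 libraries and Egfl7 had 12.3 to 38.9 TPM, while the receptors Flt1, Kdr and Tek and the sialomucin Emcn stayed under 1 TPM in all 12. The members Cldn5, Pecam1 and Rgs5 had 0 to 9.22 TPM.

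**Figure D2:**
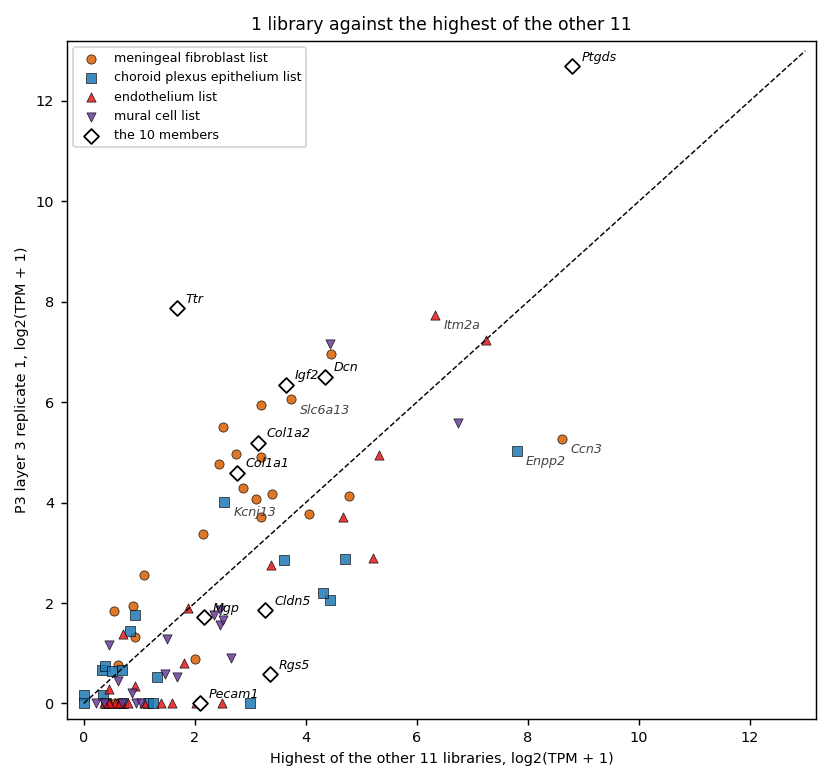
Level in P3 layer 3 replicate 1 (vertical) against the highest of the other 11 libraries (horizontal), both as log2(TPM + 1), for the 10 members (diamonds) and 4 cell type lists; points above the dashed line of equality are highest in P3 layer 3 replicate 1. Ttr and Ptgds lie farthest above the line, 12 tested meningeal genes lie above it, and Cldn5, Pecam1 and Rgs5 lie below it.

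Macrophages of the brain borders live in the meninges and around vessels, and their genes had another order of libraries. Pf4 had 718 TPM in P3 layer 2 replicate 2, 539 TPM in P3 layer 3 replicate 3 and 155 TPM in P3 layer 3 replicate 1. Lyve1 and Mrc1, receptors of these macrophages, peaked in P3 layer 3 replicate 3 (144 TPM for Lyve1) and in P3 layer 2 replicate 2 (90.4 TPM for Mrc1). None of the 8 tested border macrophage genes was highest in P3 layer 3 replicate 1, and the same held for the 8 microglial, 5 tested erythroid, 8 ependymal and 8 astrocyte genes. The share of all tested genes was 7.85%, and in lists of 5 to 8 genes a count of 0 is near that share. The astrocyte score of 3.47 in P3 layer 3 replicate 1 was the lowest of the 12, with 3.82 to 7.09 elsewhere, and its microglial score was 5.07 with 4.77 to 6.8 elsewhere. No border macrophage, microglial or erythroid gene passed in limma in any of the 5 comparisons, with at most 2, 1 and 0 at an unadjusted p under 0.05. Of all tested genes 15% rose and 9.33% fell with age in layer 2, and 14.4% rose and 6.42% fell in layer 3. Between the layers at P3 4.87% were higher and 4.18% lower in layer 2. At P7 0.5% were called, and 0.182% for the difference of age changes. The part of these cell types in the levels of the 10 members was not tested.

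**Figure D3:**
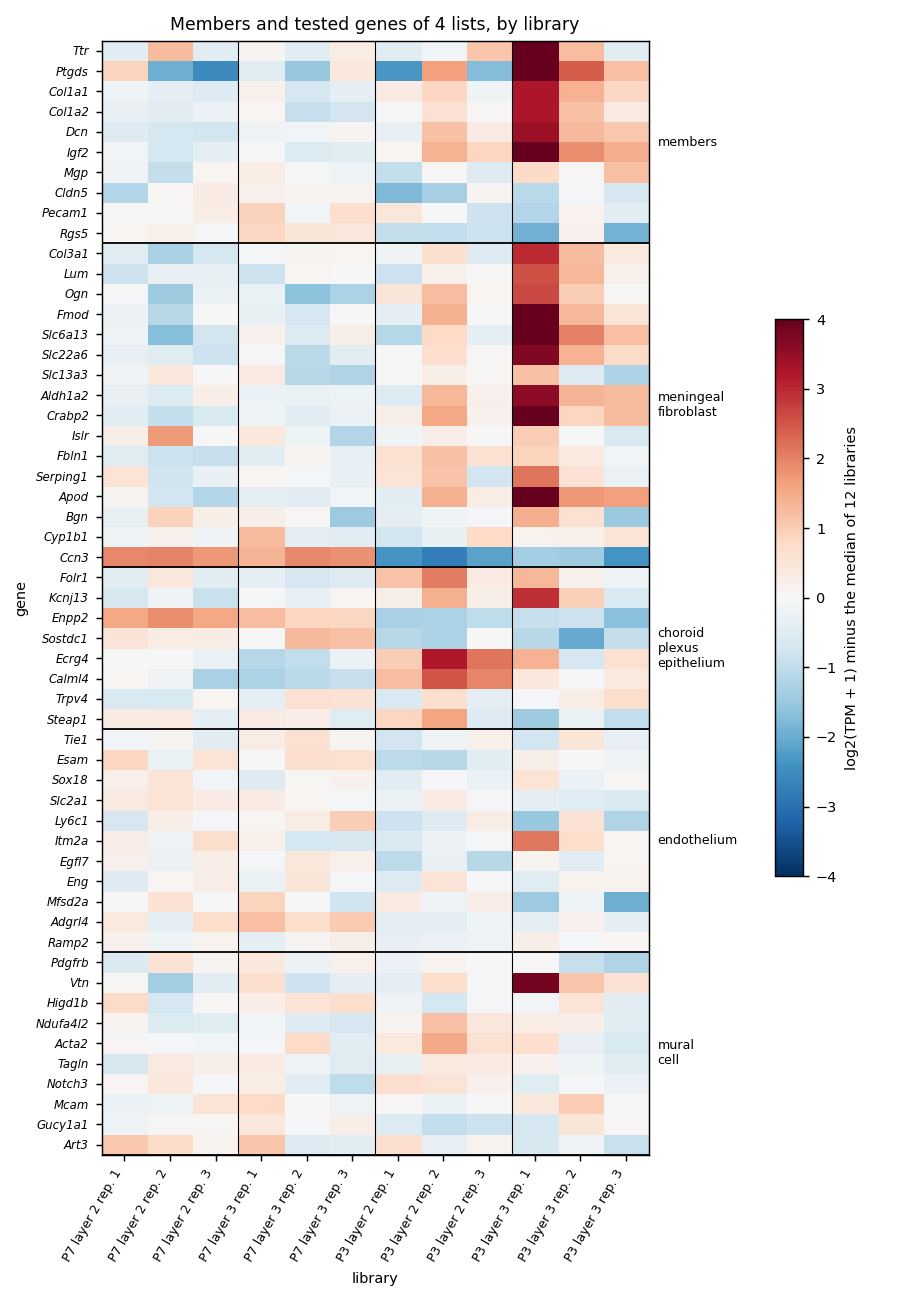
Log2(TPM + 1) of each gene minus its median over the 12 libraries, by library (columns, grouped by age and layer) for the 10 members and the tested genes of 4 lists (rows); colours stop at 4 in either direction. The P3 layer 3 replicate 1 column is red across Ttr, Ptgds, the collagens, Dcn, Igf2 and most of the meningeal list, and pale or blue across most endothelial and mural genes.

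With age in layer 3, the collagens, decorin, Igf2 and Ptgds were lower at P7 than at P3, and the 3 vessel genes were higher. Of the 10 members 7 had P7 and P3 ranges that did not overlap in layer 3, against 34.5% of all tested genes. These were Ptgds, Col1a1, Col1a2, Dcn and Igf2, all lower at P7, and Cldn5 and Rgs5, higher at P7. The log2 differences, P7 over P3, were -3.81 ± 1.26 for Ptgds, -2.97 ± 0.62 for Igf2, -2.76 ± 1.39 for Ttr, -2.10 ± 0.50 for Col1a1, -2.10 ± 0.55 for Col1a2, -1.98 ± 0.51 for Dcn and -0.66 ± 0.38 for Mgp (± SE, n = 3 libraries a group). They were 1.80 ± 0.44 for Rgs5, 0.98 ± 0.40 for Pecam1 and 0.73 ± 0.47 for Cldn5. Each SE is from the limma fit, where a gene has a single spread shared by all 4 groups. A gene thus has the same SE for every pair of groups. The median of all tested genes in this comparison was 0.17, and 0.0034 after median-ratio scaling.

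Without P3 layer 3 replicate 1 each of the 10 differences was smaller in size and kept its sign. Ttr was at -0.41, the largest drop of the 10. The differences without it were -2.31 for Ptgds, -2.0 for Igf2, -1.39 for Col1a1, -1.27 for Col1a2, -1.22 for Dcn and -0.62 for Mgp. Rgs5 stood at 1.44, Pecam1 at 0.63 and Cldn5 at 0.49. Igf2, for example, averaged 1.74 ± 0.495 TPM at P7 (SD, n = 3) and 9.98 TPM in the remaining P3 layer 3 libraries, 11.5 and 8.46 TPM.

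The meningeal list carried a test, since its genes are not members. It was chosen with earlier results of these data known, so its calls are not independent support for the member differences. At P7 in layer 3, 8 of its 16 tested genes fell, 1 rose and 7 did not pass (limma, adjusted p under 0.05 over all 17606 genes), where 6.42% of all tested genes fell and 14.4% rose. One of the 8, Lum, reached 1 TPM in 3 libraries only, all at P3, so it passed the filter through the age at which it was high and lends the count no support. The list median was -1.55, against 0.17 for all genes. Apod averaged 4.36 ± 0.664 TPM at P7 and 54.6 ± 59.6 TPM at P3 (log2 fold change -2.84, adjusted p = 0.00579 in limma). Slc22a6 averaged 0.546 ± 0.547 TPM at P7 and 11.1 ± 13.3 TPM at P3 (-2.45, adjusted p = 0.00917 in limma). Both held without P3 layer 3 replicate 1, with adjusted p = 0.0168 in limma for each. Slc6a13 averaged 2.26 ± 0.875 TPM at P7 and 28.1 ± 32.6 TPM at P3 (-2.57, adjusted p = 0.0182 in limma). Its call was lost without that library (adjusted p = 0.0739 in limma), without P7 layer 3 replicate 2 and with a pseudocount of 0.1.

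The other 5 meningeal genes that fell in layer 3 were Aldh1a2, Crabp2, Fmod, Lum and Ogn, named after their values were seen. Aldh1a2 held under all 19 alternatives, with a highest adjusted p of 0.0400 in limma. Crabp2 lost its call under 4 of 19, Ogn under 2 of 19, Fmod under 12 of 18 and Lum under 8 of 14, with adjusted p up to 0.064, 0.0673, 0.139 and 0.139 in limma, and the calls of Ogn and Fmod were among those lost without P3 layer 3 replicate 1. Islr, the third most abundant gene of the list, was among those that did not pass (-0.46, adjusted p = 0.557 in limma). Leaving out P3 layer 3 replicate 1 gave 4 lower (Aldh1a2, Apod, Crabp2 and Slc22a6) and 1 higher of 15 tested, where 4.13% of all genes fell and 8.86% rose. Ccn3 was the gene that rose, to 325 ± 65.0 TPM at P7 in layer 3, against 30.3 ± 10.9 TPM at P3 (3.43, adjusted p = 2.62e-06 in limma). It rose in layer 2 as well, to 365 ± 31.9 TPM at P7, against 17.9 ± 4.05 TPM at P3 (4.30, adjusted p = 2.29e-07 in limma). The list name thus covers genes that moved in opposite directions.

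**Figure D4:**
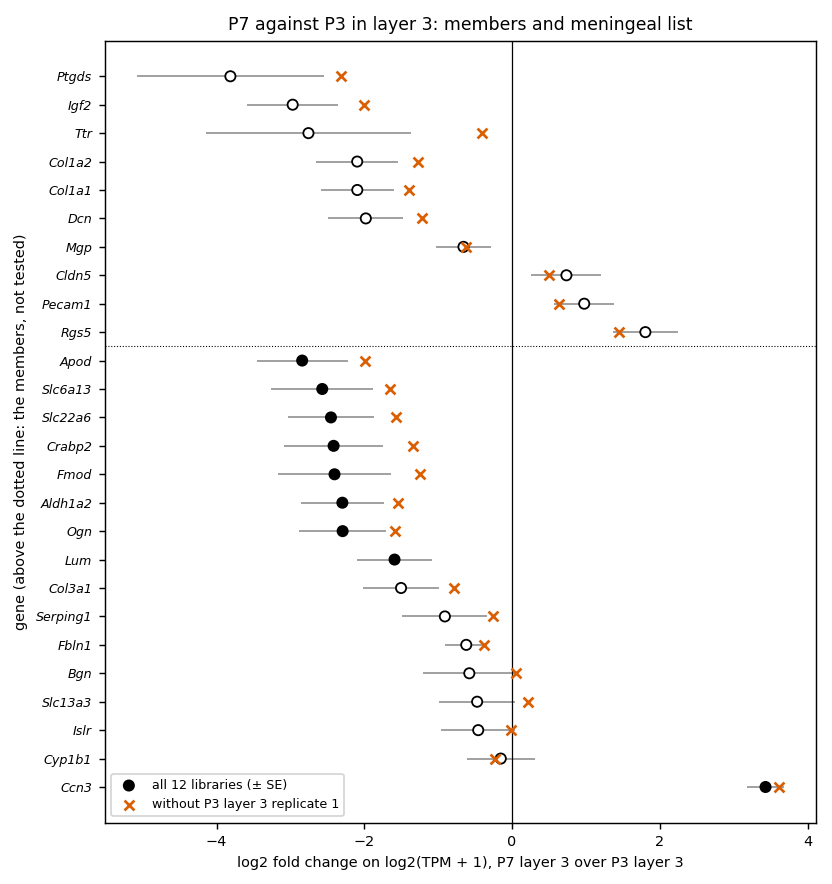
Log2 fold change on the log2(TPM + 1) scale, P7 over P3 in layer 3, with its SE, for the 10 members (above the dotted line, not tested) and the tested meningeal genes (below it, filled where the adjusted p was under 0.05); crosses give the value without P3 layer 3 replicate 1, for which Lum was not tested. Ptgds, Igf2 and Ttr lie farthest to the left among the members, the Ttr cross lies near 0, and Ccn3 and the vessel genes lie to the right.

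In the choroid plexus list, 2 of 8 tested genes rose and 1 fell in layer 3 at P7, where 14.4% of all tested genes rose and 6.42% fell. The list median was -0.50, against 0.17 for all tested genes, and -0.26 without P3 layer 3 replicate 1. Whether this list differed from the meningeal one was not tested. Enpp2, the secreted enzyme autotaxin, rose to 121 ± 20.7 TPM at P7, against 28.0 ± 8.44 TPM at P3 (2.11, adjusted p = 2.73e-05 in limma). Sostdc1, a secreted inhibitor of BMP and Wnt signals, rose to 15.8 ± 7.01 TPM at P7, against 2.64 ± 1.28 TPM at P3 (2.17, adjusted p = 0.00257 in limma). Calml4 was the gene that fell (-1.33, adjusted p = 0.0254 in limma). Its call was lost under 6 of 19 alternatives, among them leaving out P3 layer 3 replicate 1 or 3 or P7 layer 3 replicate 1 or 2, with adjusted p up to 0.0855 in limma.

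Of 11 tested endothelial genes 2 rose (Adgrl4 and Slc2a1) and 1 fell (Itm2a) at P7 in layer 3. Of all tested genes 14.4% rose and 6.42% fell in this comparison. None of the 3 endothelial calls held in limma without P3 layer 3 replicate 1 (4 genes at an unadjusted p under 0.05). Adgrl4, an adhesion receptor of endothelium, averaged 1.61 ± 0.435 TPM at P7 and 0.161 ± 0.279 TPM at P3 (1.18, adjusted p = 0.0165 in limma). Without P3 layer 3 replicate 1 its difference was 1.09 (adjusted p = 0.0655 in limma), and it reached 1 TPM in 4 libraries only, all at P7. Slc2a1, the glucose transporter of the blood-brain barrier, averaged 17.8 ± 2.71 TPM at P7 and 11.3 ± 0.885 TPM at P3 (0.60, adjusted p = 0.0379 in limma). Its call was lost under 10 of 19 alternatives, with adjusted p up to 0.147 in limma. Itm2a averaged 38.5 ± 14.7 TPM at P7 and 114 ± 86.8 TPM at P3 (-1.34, adjusted p = 0.0341 in limma), and -0.76 without P3 layer 3 replicate 1 (adjusted p = 0.128 in limma). Its call was also lost without P7 layer 3 replicate 2 or 3. No mural gene of 10 passed in layer 3 in limma (2 at an unadjusted p under 0.05), and Pdgfrb alone passed once P3 layer 3 replicate 1 was left out. Beside these, 3 of 8 astrocyte genes rose, 2 of 8 ependymal genes fell, and 1 of 10 projection neuron genes rose and 6 fell at P7 in layer 3, and their part in the member differences was not tested.

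In layer 2 the age differences were smaller in size than in layer 3 for 9 of the 10 members, and for Cldn5 they were alike, at 0.74 in layer 2 and 0.73 in layer 3. Of the 10 members 4 had ranges apart between P7 and P3, against 46.6% of all tested genes. Col1a2, Dcn and Igf2 were lower at P7 and Rgs5 was higher. The log2 differences were -0.53 ± 0.55 for Col1a2, -1.05 ± 0.51 for Dcn, -1.17 ± 0.62 for Igf2 and 1.00 ± 0.44 for Rgs5 (± SE, n = 3 libraries a group). These SEs carry the spread of the layer 3 groups too, so they do not measure the spread in layer 2 alone. Igf2 averaged 1.68 ± 0.520 TPM at P7 and 5.36 ± 2.74 TPM at P3, and Rgs5 averaged 5.04 ± 0.612 TPM at P7 and 2.01 ± 0.162 TPM at P3 (SD, n = 3 each). Within P3 layer 2, replicate 2 was the highest library for Ptgds, Col1a1, Col1a2, Dcn and Igf2. That library also had the highest erythroid sum, at 910 TPM against at most 305 TPM elsewhere. Member differences without P3 layer 2 replicate 2 are not given here. Rgs5 was more than 2-fold higher at P7 in every pairing of a P7 with a P3 library of layer 2. Ttr, Ptgds, Col1a1, Mgp, Cldn5 and Pecam1 overlapped between the ages.

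Among the lists, 1 meningeal gene rose (Ccn3) and 1 fell (Fbln1) of 16 in layer 2, where 15% of all tested genes rose and 9.33% fell. Leaving out P3 layer 3 replicate 1, which enters through the shared spread, added Crabp2 (-1.34, adjusted p = 0.0139 in limma, against 0.17). At an unadjusted p under 0.05 there were then 7 of 15 meningeal genes, against 2 of 16 with it. The choroid plexus, endothelial and mural calls with age in layer 2 were the same with and without it. Of 8 choroid plexus genes 1 rose (Enpp2) and 3 fell (Calml4, Ecrg4 and Folr1), and the list median was -0.86, against 0.033 for all tested genes. The call of Folr1 (-1.34, adjusted p = 0.048 in limma) was lost under 13 of 19 alternatives, with adjusted p up to 0.215 in limma. Enpp2 rose to 194 ± 24.3 TPM at P7, against 26.3 ± 3.08 TPM at P3 (2.84, adjusted p = 1.13e-06 in limma). Calml4 fell to 1.73 ± 1.17 TPM at P7, against 12.8 ± 5.86 TPM at P3 (-2.35, adjusted p = 0.00065 in limma). Ecrg4, a secreted peptide precursor, fell to 1.68 ± 0.277 TPM at P7, against 13.8 ± 10.49 TPM at P3 (-2.21, adjusted p = 0.00955 in limma), a call that was lost without P3 layer 2 replicate 2 (adjusted p = 0.0516 in limma). Motile cilium genes of ependyma moved beside these in layer 2, with 7 of 8 lower at P7 and list scores of 2.82 to 3.99 at P7 and 4.84 to 5.98 at P3, and their part in the choroid plexus values was not tested.

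Of 11 endothelial genes 2 rose in layer 2, where 15% of all tested genes rose. Esam, an adhesion molecule of endothelial junctions, rose to 6.83 ± 2.86 TPM at P7, against 2.21 ± 0.841 TPM at P3 (1.25, adjusted p = 0.012 in limma). Egfl7, a secreted endothelial protein, rose to 29.7 ± 5.28 TPM at P7, against 16.03 ± 5.84 TPM at P3 (0.89, adjusted p = 0.0185 in limma). The call of Esam was lost without P3 layer 2 replicate 2 and without P7 layer 2 replicate 1 or 3, and that of Egfl7 without replicate 1 or 3 of either age, with adjusted p up to 0.0649 and 0.0778 in limma. Of 10 mural genes 1 rose, the guanylate cyclase subunit Gucy1a1, to 74.1 ± 7.30 TPM at P7, against 43.3 ± 7.27 TPM at P3 (0.77, adjusted p = 0.0314 in limma). Its call was lost under 6 of 19 alternatives, 5 of them with a layer 2 library left out, with adjusted p up to 0.113 in limma.

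Between the layers at P3, most members were lower in layer 2 than in layer 3. Of the 10 members 3 had ranges apart (Col1a1, Mgp and Igf2, all lower in layer 2), against 27% of all tested genes. The log2 differences, layer 2 over layer 3, were -4.12 ± 1.26 for Ptgds, -2.57 ± 1.39 for Ttr, -1.84 ± 0.62 for Igf2, -1.54 ± 0.51 for Dcn, -1.49 ± 0.50 for Col1a1, -1.37 ± 0.55 for Col1a2 and -1.15 ± 0.38 for Mgp (± SE, n = 3 libraries a group). They were within 1 SE of 0 for Cldn5, Pecam1 and Rgs5. Without P3 layer 3 replicate 1 they were -2.62 for Ptgds, -0.22 for Ttr, -0.87 for Igf2, -0.78 for Dcn, -0.78 for Col1a1, -0.54 for Col1a2 and -1.11 for Mgp. Mgp was thus the member whose difference depended least on that library, though it rested on levels of 0 to 1.00 TPM in layer 2 and 1.02 to 3.50 TPM in layer 3.

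In the meningeal list 2 of 16 genes were called at P3, both lower in layer 2, where 4.18% of all tested genes were lower and 4.87% higher. Slc6a13 had a mean of 2.24 ± 2.18 TPM in layer 2, against 28.1 ± 32.6 TPM in layer 3 (-2.76, adjusted p = 0.0253 in limma). Apod had a mean of 9.16 ± 6.61 TPM in layer 2, against 54.6 ± 59.6 TPM in layer 3 (-2.12, adjusted p = 0.0477 in limma). Neither call held without P3 layer 3 replicate 1 (adjusted p = 0.0742 and 0.139 in limma) or without P3 layer 2 replicate 1 or 3, and that of Apod was lost under 14 of 19 alternatives. In the choroid plexus list 1 of 8 genes was called, Calml4, which was higher in layer 2 (1.65, adjusted p = 0.0175 in limma), and its call was lost without P3 layer 2 replicate 2 or 3 and with a pseudocount of 0.1. No endothelial gene of 11 and no mural gene of 10 passed in limma, with 5 and 4 at an unadjusted p under 0.05. Without P3 layer 3 replicate 1 the mural gene Gucy1a1 was called lower in layer 2 (-1.07, adjusted p = 0.00674 in limma, against -0.76 and 0.065 with that library), and Ecrg4 was called higher in layer 2 beside Calml4. Ependymal and astrocyte genes were higher in layer 2 at P3 (7 of 8 and 5 of 8 called), and projection neuron genes were lower (7 of 10 called). Leaving out P3 layer 3 replicate 1 gave 8 ependymal, 0 astrocyte (5 at an unadjusted p under 0.05) and 6 projection neuron genes, where 2.46% of all tested genes were higher and 3.77% lower. The part of these lists in the member differences was not tested.

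At P7, 2 of the 10 members had ranges apart (Dcn and Rgs5, both lower in layer 2), against 20% of all tested genes. The mean of Dcn was 4.32 ± 0.395 TPM in layer 2, against 7.11 ± 0.737 TPM in layer 3, and that of Rgs5 was 5.04 ± 0.612 TPM in layer 2, against 7.69 ± 1.33 TPM in layer 3 (SD, n = 3 each). The log2 differences were -0.61 ± 0.51 for Dcn and -0.52 ± 0.44 for Rgs5 (± SE). These SEs carry the spread of the P3 groups too, so they do not measure the spread at P7 alone. The other 8 differences were between -0.70 (Ptgds) and 0.20 (Col1a2), each smaller than its SE. No gene of the meningeal, choroid plexus, endothelial or mural lists passed in limma, where 0.5% of all tested genes did. At an unadjusted p under 0.05 there were 0 meningeal, 1 choroid plexus, 1 endothelial and 0 mural genes.

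The change with age differed between the layers by more than 1 log2 unit for 5 members, with wide errors. Age change in layer 2 minus age change in layer 3 was 3.42 ± 1.78 for Ptgds, 2.71 ± 1.96 for Ttr, 1.80 ± 0.87 for Igf2, 1.57 ± 0.78 for Col1a2 and 1.42 ± 0.70 for Col1a1 (± SE). Once P3 layer 3 replicate 1 was left out these were 1.92, 0.36, 0.83, 0.74 and 0.71, in that order. No gene of the meningeal, choroid plexus, endothelial or mural lists passed in limma for this difference, where 0.182% of all tested genes did. At an unadjusted p under 0.05 there were 3 meningeal, 2 choroid plexus, 1 endothelial and 0 mural genes.

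Across the 12 libraries 5 members varied together, and the 3 vessel genes were less closely tied to each other. These sets of 5 and 3 were formed with the levels known. Among Ptgds, Col1a1, Col1a2, Dcn and Igf2, Pearson r of log2(TPM + 1) was 0.851 to 0.976 in the 10 pairs (Spearman rho 0.643 to 0.944), and 0.604 to 0.927 over 11 libraries without P3 layer 3 replicate 1. Among Cldn5, Pecam1 and Rgs5 r was 0.195 to 0.710, and 0.0238 to 0.573 without that library. Between these 5 and the vessel genes r was -0.725 to -0.323, and -0.596 to -0.00763 without it. The libraries share age and layer, so these values also carry the differences between groups, and they are a description with no test. Ttr had r of 0.73 to 0.86 with the 5 genes over 12 libraries and 0.08 to 0.30 without P3 layer 3 replicate 1. Mgp had r of 0.485 to 0.635 with the same 5 genes, and 0.304 to 0.556 without that library.

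**Figure D5:**
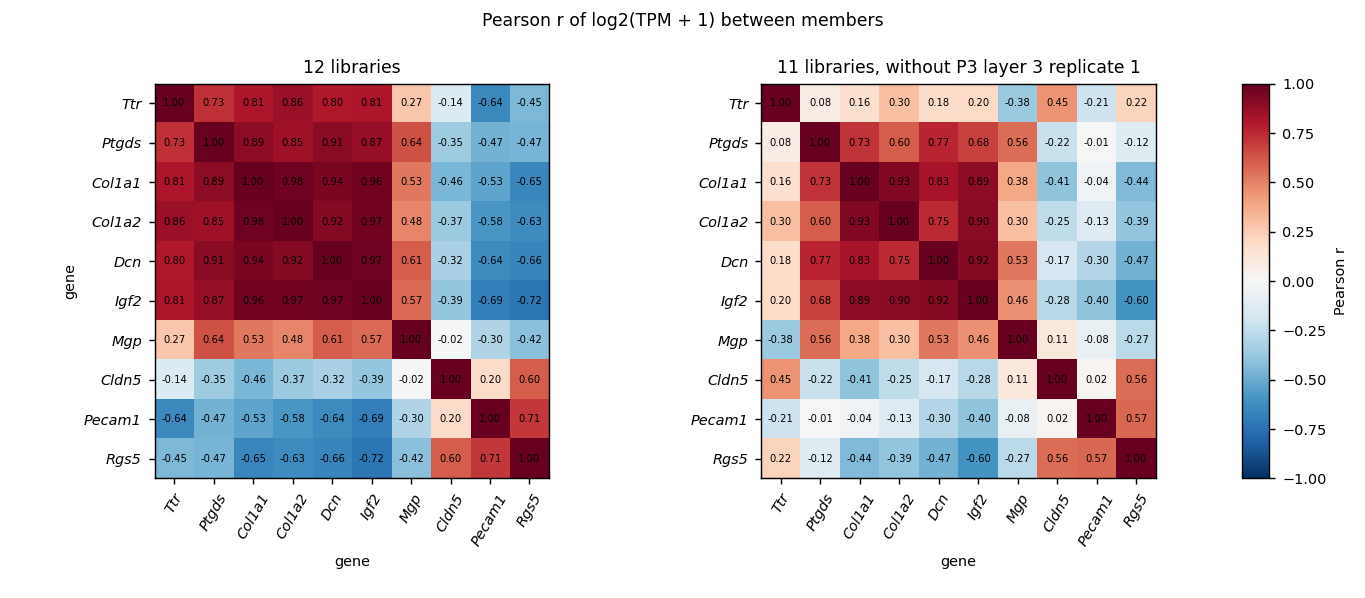
Pearson r of log2(TPM + 1) between the 10 members over all 12 libraries (left) and over 11 libraries without P3 layer 3 replicate 1 (right), with r printed in each cell. Ptgds, Col1a1, Col1a2, Dcn and Igf2 stay positive in both panels, while Ttr keeps its values with them only when that library is included.

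The tested genes most like each member over the 12 libraries were named by Pearson r. For Col1a1 this was Slc22a6 (r = 0.991, and 0.974 without P3 layer 3 replicate 1), and for Igf2 it was Osr1, which encodes a transcription factor (0.987, and 0.962 without it). For Dcn it was Apod (0.980, and 0.950 without it), for Ptgds it was Slc6a13 (0.955, and 0.892 without it) and for Col1a2 it was Slc22a6 (0.983, and 0.939 without it). Ttr was most like Adm, the vasodilator peptide adrenomedullin (0.937, and 0.742 without it), which had 10.53 TPM in P3 layer 3 replicate 1 and at most 1.89 TPM elsewhere. Cldn5 was most like Ccser1 (0.921), Pecam1 most like Pdk2 (0.954), Rgs5 most like Trappc11 (0.977) and Mgp most like 2310009B15Rik (0.874), none of which is in the vessel lists. In all, 22 tested genes were at least 5-fold higher in P3 layer 3 replicate 1 than in any other library, and Slc13a4, a sulfate transporter (25.7 TPM, at most 5.06 TPM elsewhere), Osr1 (24.5 TPM, at most 3.21 TPM elsewhere) and Wnt6, a Wnt ligand (9.64 TPM, at most 1.05 TPM elsewhere), were among those in no list, named after their values were seen.

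Genes that fold, crosslink and accompany collagen formed a further list. Of 17 tested genes of this list, 2 rose in layer 2 at P7 (Col4a2 and Col6a2) and 2 fell in layer 3 (Lox and Pcolce), where 15% of all tested genes rose in layer 2 and 6.42% fell in layer 3. The call of Col6a2 was lost under 7 of 19 alternatives, with adjusted p up to 0.152 in limma, and neither of the calls in layer 3 held in limma without P3 layer 3 replicate 1, where 2 of the 17 genes had an unadjusted p under 0.05. Pcolce, which helps cleave procollagen, averaged 1.80 ± 1.21 TPM at P7 and 11.1 ± 10.2 TPM at P3 in layer 3 (-1.89, adjusted p = 0.0224 in limma, and 0.0994 without that library). Its call was also lost without P7 layer 3 replicate 2 or 3. Col4a2, a chain of basement membrane collagen, averaged 8.09 ± 1.24 TPM at P7 and 3.87 ± 0.660 TPM at P3 in layer 2 (0.90, adjusted p = 0.0236 in limma, up to 0.0956 with 1 layer 2 library left out). Serpinh1, the collagen chaperone HSP47, had 33.0 TPM in P3 layer 3 replicate 1, below the 42.5 TPM of P3 layer 2 replicate 2. The matrix protein gene Sparc and the prolyl hydroxylase gene P4ha1, the most abundant of the list, did not pass with age in either layer. Of the 17 genes 3 were highest in P3 layer 3 replicate 1 (Pcolce at 22.9 TPM, Lox at 4.72 TPM and Col6a1 at 4.58 TPM), a share of 17.6%, against 7.85% of all tested genes, and the untested Col5a1 was highest there as well, at 3.12 TPM.

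In the insulin-like growth factor axis, Igfbp2, a binding protein of IGF2, fell at P7 in both layers. It fell to 66.3 ± 31.5 TPM in layer 3 at P7, against 304 ± 183 TPM at P3 (-2.11, adjusted p = 0.00135 in limma), and to 91.3 ± 22.8 TPM in layer 2 at P7, against 328 ± 65.5 TPM at P3 (-1.84, adjusted p = 0.00247 in limma). Without P3 layer 3 replicate 1 the change in layer 3 was -1.66 (adjusted p = 0.00429 in limma). Igf1 and the RNA-binding protein gene Igf2bp3 also fell in layer 2, by 1.83 and 1.72 on the log2 scale (adjusted p = 0.00656 and 0.0025 in limma). Igfbp5, another binding protein, rose in layer 2 to 63.5 ± 5.52 TPM at P7, against 22.7 ± 8.45 TPM at P3 (1.5, adjusted p = 0.000139 in limma). It was also lower in layer 2 than in layer 3 at P3 (-1.81, adjusted p = 0.000298 in limma). In all, 1 of 12 tested genes rose and 3 fell in layer 2, and 1 fell in layer 3. Of all tested genes 15% rose and 9.33% fell in layer 2, and 6.42% fell in layer 3. H19, the imprinted neighbour of Igf2, did not pass at either age or layer, with a log2 difference of -1.46 in layer 3 at P7 (adjusted p = 0.0607 in limma). It was highest in P3 layer 3 replicate 1, at 10.53 TPM against at most 3.82 TPM elsewhere, and without that library the difference was -0.79 (adjusted p = 0.258 in limma). Igfbp4, also abundant, did not pass with age in either layer.

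Transthyretin carries retinol, through retinol-binding protein, and thyroid hormone, and some genes tied to these ligands also differed. Crabp1, a cellular binding protein of retinoic acid, averaged 4.67 ± 2.96 TPM at P7 and 12.96 ± 3.556 TPM at P3 in layer 3 (-1.42, adjusted p = 0.0225 in limma), and its call was lost without P3 layer 3 replicate 1 (adjusted p = 0.0947 in limma) or P7 layer 3 replicate 3, or when only the groups compared were fitted. It also fell at P7 in layer 2 (-1.34, adjusted p = 0.0254 in limma), a call that was lost with no filter and without P7 layer 2 replicate 3 or P3 layer 2 replicate 2. Rbp4, the plasma carrier of retinol, averaged 4.43 ± 2.74 TPM at P7 and 1.44 ± 0.912 TPM at P3 in layer 3 (1.10, adjusted p = 0.0472 in limma), and its call was lost under 14 of 18 alternatives, with adjusted p up to 0.175 in limma. Another pair was higher in layer 2 than in layer 3 at P3. Thrsp, a gene induced by thyroid hormone, had a mean of 17.4 ± 1.20 TPM in layer 2, against 4.88 ± 0.731 TPM in layer 3 (1.65, adjusted p = 0.0012 in limma). Slco1c1, a thyroxine transporter of vessels and astrocytes, had a mean of 54.4 ± 6.496 TPM in layer 2, against 16.7 ± 13.5 TPM in layer 3 (1.94, adjusted p = 0.0344 in limma), and its call was lost without any of the P3 libraries except P3 layer 3 replicate 2 (0.118 without P3 layer 3 replicate 1).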

How the data were processed

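The labels' protocols name the RNeasy mini kit for RNA isolation and the SMART-Seq mRNA LP kit for the 12 libraries. Per the submitters' processing notes the tools were HISAT2, StringTie and featureCounts with build GRCm39; versions, strand setting and the treatment of shared reads are not given in the sources used here. The deposited table holds TPM values computed by the authors, and each column sums to 1000000, so depth and counting error are unknown. Whether reads of overlapping genes were told apart by strand is thus not known.

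Groups came from the sample labels. The 17606 genes that reached 1 TPM in 3 or more libraries were fitted as log2(TPM + 1) in limma-trend (limma 3.58.1, R 4.3.3) with 1 mean per group and 8 residual degrees of freedom, and p-values were adjusted by Benjamini-Hochberg over all tested genes; the pseudocount shrinks the fold changes of low genes. With 3 libraries against 3, exact permutation of labels reaches no p below 0.1. Tables were made with Python 3.11.15 and pandas 2.3.3. Promoter letters are from RefSeq (GRCm38.p6).

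The 10 members, the 13 lists of cell type and pathway genes, the tests and the alternatives were chosen with earlier results of these data known. List genes named were up to 4 called per list (largest change, and a group mean of 5 TPM or more) and the 3 of highest mean; other list genes, such as markers near 0, were named after their values were seen, and the lists of other cell types are given mostly as counts. Alternatives were each library left out, a replicate block, median-ratio scaling, pseudocounts of 0.1 and 5, a fit restricted to the groups compared, and either no filter or one at 5 TPM. List counts without P3 layer 3 replicate 1 were added after seeing the data. Some genes of the retinoid and thyroid hormone list, and its counts, are not reported here.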

Additional observations from a re-analysis of the deposited data

Results flagged for a closer look

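Rsph1, a radial spoke gene of motile cilia and a member of the ependymal list, was the list gene whose change with age differed between the layers. Age change in layer 2 minus age change in layer 3 was -2.73 on the log2 scale (adjusted p = 0.0397 in limma). The call was lost under 10 of 18 alternatives, with adjusted p = 0.0743 without P3 layer 3 replicate 1 and up to 0.144 with another library left out. In layer 2 Rsph1 averaged 27.9 ± 10.02 TPM at P7 and 108 ± 59.2 TPM at P3 (SD, n = 3 each). Its change with age in layer 3 was not called. P3 layer 3 replicate 1 had its lowest level, at 14.1 TPM, with 18.5 to 176 TPM in the other libraries.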

How the results depend on the processing

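The counts of all genes called bear on the backgrounds above. At P3 they were 1593 genes, 1046 when only the compared groups were fitted and 657 to 1974 with 1 library left out. At P7 they were 88 genes, 47 and 147 with pseudocounts of 0.1 and 5 and 14 to 125 with 1 left out. With age in layer 2 they were 4280 genes and 2793 to 4951 with 1 left out. With age in layer 3 they were 3670 genes, 2239 when only the compared groups were fitted and 2275 to 5225 with 1 left out. For the difference of age changes they were 32 genes, 14 with a pseudocount of 0.1, 16 with no filter and 8 to 102 with 1 left out. The share of higher calls with age in layer 3 was 69.2%, and 49.9% after median-ratio scaling. The labels do not say whether replicate numbers pair the libraries. Same-numbered libraries had deviations correlated at -0.189 to 0.214 (5 of 18 pairs over 0.1). Other-numbered libraries had -0.267 to 0.284 (5 of 36 pairs over 0.1). With so few libraries a group these values cannot settle pairing. With the replicate block 1524, 68, 4084, 3336 and 31 genes were called, in the order above. Of 50 member differences, 1 changed sign under median-ratio scaling, that of Igf2 between the layers at P7 (0.0017, against -0.0388), and no more than 5 with any library left out. Low members moved with the pseudocount, Rgs5 with age in layer 3 being 2.57 at a pseudocount of 0.1 and 0.89 at 5. Depth is unknown, so levels under 1 TPM, and Mgp and Pecam1 in most groups, cannot be given a counting error.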
